A study of Mus musculus with 12 samples.

Results

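The count matrix listed 54532 genes, and 67 of them were members of the glutathione S-transferase, UDP-glucuronosyltransferase and sulfotransferase families. Membership was set by gene name, and the families were chosen with earlier results of these data known. Members were the Gst classes A, K, M, O, P, T and Z, the microsomal Mgst genes, the Ugt genes of families 1 to 3 and all Sult genes. Names that carry a pseudogene mark were left out. RNA came from whole kidneys of 12 C57BL/6 mice (a C57BL/6J background by the study's methods) aged 18 days, in 4 groups of 3. All 4 groups carried the RC allele of Pkd1, a missense hypomorphic allele, opposite a floxed Pkd1 allele. The noncystic mice had no Cre, so that the floxed allele stayed intact (Pkd1 RC/+), and were either wild type at Pkd2 (Pkd2WT, mice 19, 20 and 21) or homozygous for the germline Δ17 deletion (Pkd2Δ17, mice 22, 23 and 24). The cystic mice carried Ksp-Cre, which is expressed in kidney tubules and removes the floxed Pkd1 allele there only (Pkd1 RC/-), and were again Pkd2WT (mice 25, 26 and 27) or Pkd2Δ17 (mice 28, 29 and 30). Δ17 removes the binding motif for the microRNA miR-17 from the 3′ untranslated region of Pkd2, and in polycystic kidney disease loss of Pkd1 function turns tubules into cysts. The comparisons ask how these enzyme genes stood in cystic against noncystic kidneys, with and without the motif, and what its deletion changed within each disease state.

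These enzymes carry out conjugation, the phase of drug and hormone metabolism in which a small polar group is joined to a fat-soluble compound so that it can leave the cell and be excreted. Glutathione transferases add glutathione to reactive compounds, glucuronosyltransferases add a sugar acid from UDP-glucuronate, and sulfotransferases add sulfate from the carrier PAPS. In the kidney most of this work is done by the proximal tubule, which takes up organic anions from blood and secretes the conjugates into urine, and many of the genes lie in tandem clusters of close copies.

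On the mouse build GRCm38, the 7 Gstm genes lay on chromosome 3 at chr3:107895821-108044894, the 4 Gstt genes at chr10:75774115-75837424 and 3 of the 4 Gsta genes at chr9:78182774-78355788. The 9 Ugt1 genes shared chr1:88055388-88220002, and both Ugt3 genes lay at chr15:9276888-9370955. A stretch of chromosome 5, chr5:86889767-87591594, held 13 members: the 10 Ugt2 genes with Sult1b1, Sult1d1 and Sult1e1. Pkd2 lies on the same chromosome but outside this stretch, at chr5:104459450-104505819. The 8 Sult2a genes lay at chr7:13623967-14494230.

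Many conjugation genes are known targets of Nrf2, which acts through the antioxidant response element, and of the aryl hydrocarbon receptor, which acts through the xenobiotic response element. RefSeq promoter windows (GRCm38.p6, 250 bases before to 50 after a transcription start) were found for 59 members, 71 windows in all. Both strands were searched for the letters TGACNNNGC of the first element and GCGTG, the core of the second. The first was in 4 of the 71 member windows (5.634%) and in 12.39% of all 32851 windows, and the second in 19.72% of member windows and 32.39% of all. The 4 stretches with the first motif are shown because they are all the members hold, and the GCGTG stretches of Gsta2 and Sult1d1, 2 of the 12 member genes with that motif, because those genes had the largest called decreases in cystic Pkd2WT kidneys. Each is written 5′ to 3′ along its gene, with the motif, or its reverse complement in Mgst1 and Sult1d1, in capitals.
Gsta3: ctcaggcaTGACATTGCatttttct
Gstm5: ccgcccacTGACCACGCggagggcg
Gstm7: tgaagaccTGACAAAGCgaagccaa
Mgst1: ggggcttgGCACGGTCAggaggcgg
Gsta2: ctaaagtaGCGTGcacactcc
Sult1d1: gttaacaaCACGCaaaacatg
They lie at chr1:21240456-21240480 on the plus strand, chr3:107895804-107895828 on the plus strand, chr3:107931727-107931751 on the minus strand, chr6:138140463-138140487 on the plus strand, chr9:78347140-78347160 on the minus strand and chr5:87569041-87569061 on the minus strand, in that order. The motif in Gstm5 overlaps a reverse-strand match to GCGTG. A match is a string of letters and not a measured site.

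Libraries held 18800307 to 24453033 counts assigned to genes. Levels are given as CPM, counts scaled to a common library total after each total was multiplied by its TMM factor. Pkd2 was at 193.8 to 219 CPM in the noncystic and 213 to 233 CPM in the cystic Pkd2WT mice, and at 270.5 to 286 and 307 to 337 CPM in the corresponding Pkd2Δ17 mice. Some libraries stood apart. Mouse 25 (cystic Pkd2WT) had 9173 counts of Alb and mouse 30 (cystic Pkd2Δ17) had 1896, mouse 19 had 316, and the other 9 mice had 4 to 33. Mice 27 and 30 had 205 and 1624 counts of the adrenal gene Cyp11a1. The labels give no sex, and of each group's 3 mice, 1, 2, 2 and 1 had female-type Xist counts, in the order of the groups above. Results that rest on these libraries are given with and without them.

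Of the 67 members, 57 had at least 1 count and 53 reached the expression cutoff for testing, an average log2 CPM above -3. The 14 not tested were Gstm3, Sult1c1, Sult2a3, Sult2a4, Sult2a5, Sult2a6, Sult2a7, Sult3a1, Sult3a2, Sult6b2, Ugt1a5, Ugt1a8, Ugt2a1 and Ugt2a2, of which 10 had no count in any mouse. A core of 32 members had at least 10 counts in every mouse. A gene was called at an adjusted p under 0.05, from the quasi-likelihood test of edgeR after Benjamini-Hochberg adjustment over all 24642 genes tested, and this test gave every adjusted p below unless another is named. Log2 fold changes are given ± SE, with 3 mice in each group. Exons of Gstm5, Gstz1, Sult1a1, Sult2b1 and Sult6b1 overlap a gene on the other strand, leaving 86.1% to 96.0% of their exon length to them alone. Exons of the Ugt1 genes also overlap a gene on the other strand, Gm20528. Whether the counting used strand was not given in the sources used here, so reads in the overlaps may be lost or come from the other gene.

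In cystic against noncystic Pkd2WT kidneys more members fell than rose. The test called 27 of the 53 members, 20 lower and 7 higher, where it called 31.1% of all genes (14.2% lower, 16.9% higher). The median log2 fold change was -0.17 over the 53 and -0.77 over the core of 32, against 0.02 over all genes tested. Without mouse 25 the median of the tested members was -0.46 and that of all genes -0.01. Leaving out any other 1 mouse of these groups gave members' medians of -0.26 to -0.14. Within the core, 19 members fell and 4 rose. When the test was fitted only on the 14769 genes with at least 10 counts in every mouse, it called 20 of the 32 lower and 4 higher, against 23.9% and 25.8% of those genes, whose median was 0.01. The groups did not overlap for 33 members, 24 lower and 9 higher, against 41.7% of all genes. Scaling by library totals in place of TMM moved the median of all genes to 0.18, that of the members to -0.01 and the calls over all genes to 10.02% lower and 25.4% higher. It called 30 members, 11 higher and 19 lower: Gstp1, Mgst1, Sult6b1 and Ugt2b37 were added as higher and Sult1c2 was lost.

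**Figure D1:**
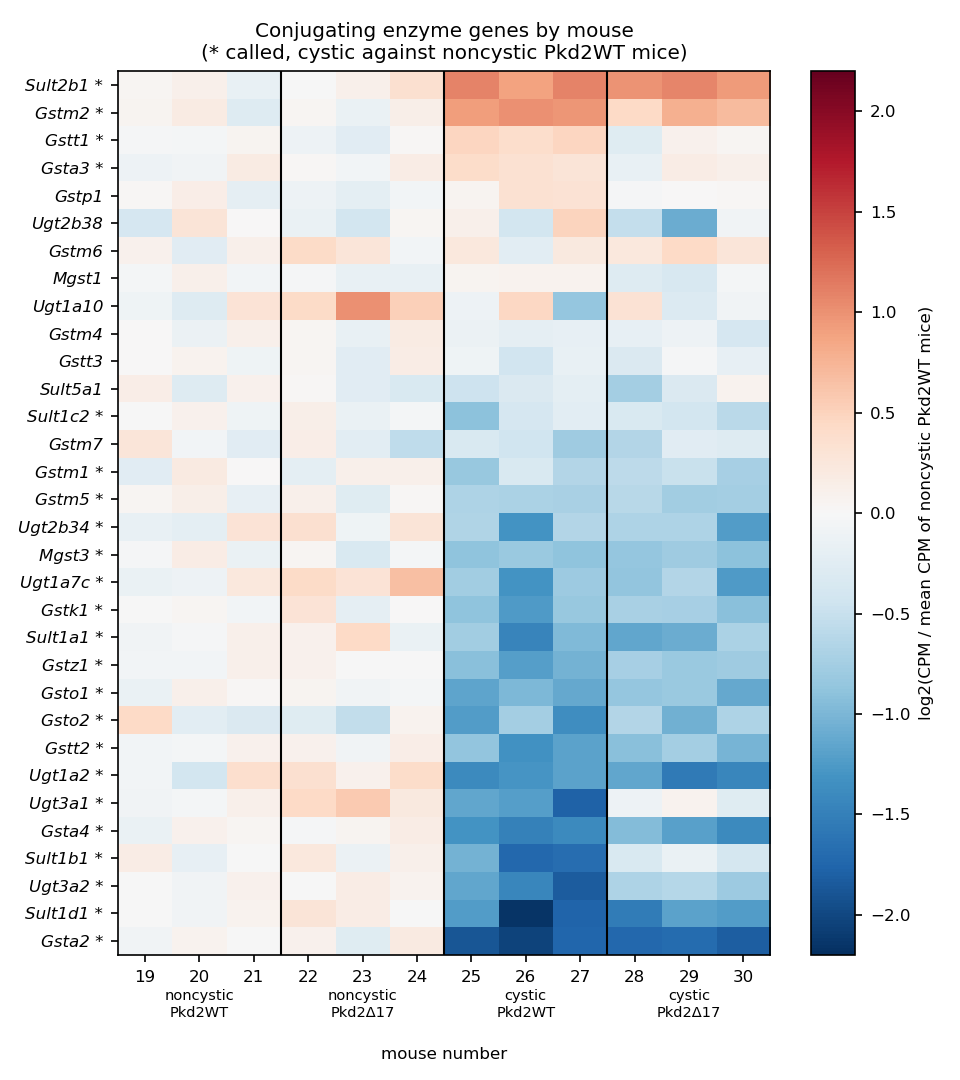
Heat map of the 32 members with at least 10 counts in every mouse (rows) in each of the 12 mice (columns, by group); colour is log2 of CPM over the mean CPM of the noncystic Pkd2WT mice, and an asterisk marks a gene called in cystic against noncystic Pkd2WT kidneys. Of these members 19 fell and 4 rose in cystic Pkd2WT kidneys.

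The alpha-class transferases, which detoxify products of lipid peroxidation, held the steepest decrease among the Gst genes. Gsta2 stood at 289, 322 and 301 CPM in the noncystic Pkd2WT mice and at 82.5, 74.0 and 90.2 CPM in the cystic ones. The groups were far apart, with a log2 fold change of -1.89 ± 0.11, or 3.70-fold lower (adjusted p = 8.0e-09). Gsta4, whose enzyme is known for conjugating the lipid aldehyde hydroxynonenal, fell 2.63-fold without overlap (-1.39 ± 0.10, adjusted p = 6.3e-08). Gsta3, in contrast, was higher in each cystic Pkd2WT mouse. It measured 64.0, 65.3 and 78.5 CPM in the noncystic and 91.6, 87.7 and 84.0 CPM in the cystic mice, a log2 fold change of 0.34 ± 0.10 (adjusted p = 0.013). That call was lost without mouse 19 (adjusted p = 0.070) or mouse 20 (adjusted p = 0.090). Gsta1 was not called, and 80.6% of its 100-base transcript windows also occur in other genes, as do 28.4% of those of Gsta2, so reads can be lost or split between them.

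The mu class moved both ways within its cluster on chromosome 3. Gstm1, the most abundant mu transferase of the noncystic kidney per kilobase, was at 141, 191 and 169 CPM in noncystic and 93.5, 132 and 107 CPM in cystic Pkd2WT mice. It fell 1.50-fold without overlap (-0.59 ± 0.13, adjusted p = 0.0021). Gstm5 fell 1.62-fold, from 90.3, 95.2 and 76.8 CPM to 54.8, 54.0 and 53.3 CPM (adjusted p = 4.2e-05). Gstm2 rose instead: its 3 noncystic values of 112, 123 and 88.5 CPM lay below its 3 cystic values of 205, 217 and 211 CPM. This was a 1.96-fold increase (0.97 ± 0.11, adjusted p = 5.8e-06). Gstm4, Gstm6 and Gstm7 did not pass the test, and Gstm7 came nearest at -0.50 (adjusted p = 0.079).

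Zeta, kappa and omega transferases fell, while the theta genes were split. Gstz1, the isomerase of tyrosine breakdown, went from 184, 186 and 208 CPM to 101, 82.9 and 93.8 CPM, and Gstt2 from 191, 195 and 214 CPM to 109.9, 79.1 and 88.4 CPM. Neither showed any overlap, with decreases of 2.08-fold and 2.16-fold (adjusted p = 1.1e-07 and 1.1e-06). Gstt1, in the same cluster on chromosome 10, rose 1.36-fold. It was at 81.4, 80.3 and 86.4 CPM in noncystic and 115, 109 and 115 CPM in cystic Pkd2WT mice (0.45 ± 0.09, adjusted p = 0.0012). The other theta genes, Gstt3 and Gstt4, were not called. Gstk1, a transferase of mitochondria and peroxisomes, fell 1.96-fold from 50.9, 52.7 and 49.1 CPM to 27.6, 21.3 and 28.7 CPM (adjusted p = 1.4e-05). Gsto1, which works as a thiol reductase, fell 2.13-fold without overlap, from 101, 120.3 and 113 CPM to 49.9, 56.1 and 51.3 CPM (-1.09 ± 0.09, adjusted p = 1.9e-07). The scarcer Gsto2 fell too (-1.09, adjusted p = 0.0086), a call lost without mouse 19 (adjusted p = 0.068). Gstp1 of the pi class was at 75.5, 82.7 and 64.8 CPM in noncystic and 77.9, 93.8 and 92.5 CPM in cystic mice. These groups overlapped and Gstp1 was not called (0.24 ± 0.09, adjusted p = 0.055), although it was with library totals (0.40, adjusted p = 0.0021), without mouse 20 (adjusted p = 0.030) and without mouse 25 (adjusted p = 0.013).

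Of the membrane-bound transferases, Mgst3, which conjugates leukotrienes and reduces lipid peroxides, went from 156, 179.7 and 144 CPM to 86.8, 91.4 and 86.5 CPM. The groups were separate, and the decrease was 1.81-fold (-0.86 ± 0.10, adjusted p = 4.1e-06). Mgst1 stood at 113 to 127 CPM and at 123 to 125 CPM in the same groups, overlapping and not called (0.07, adjusted p = 0.56). Mgst2 had 15 counts or fewer in every mouse.

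**Figure D2:**
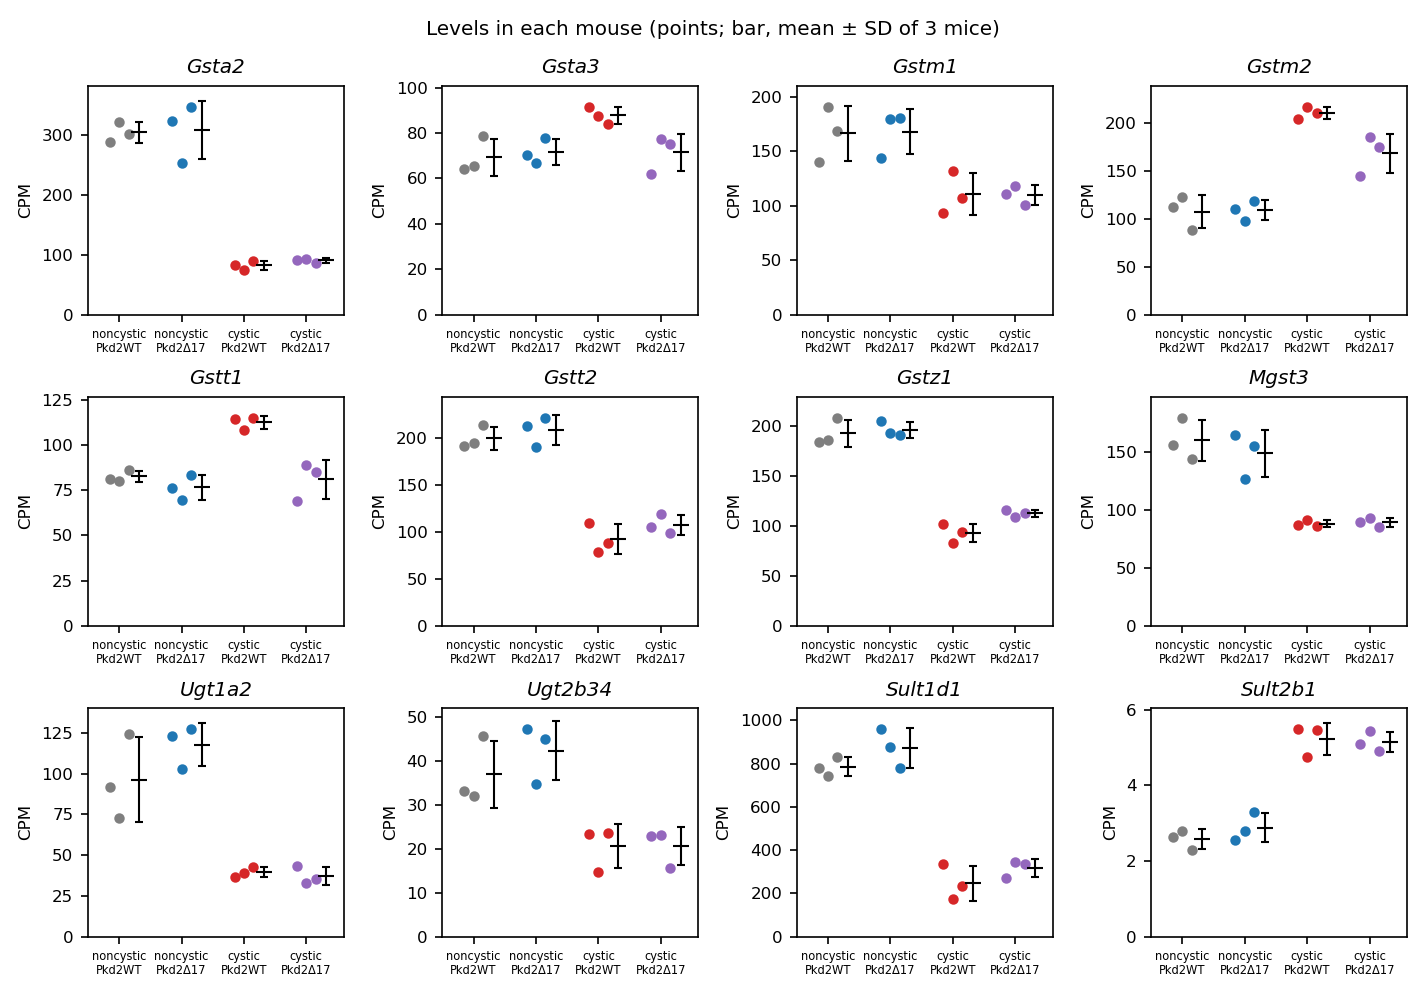
CPM of 12 members in each mouse (points) by group, with the mean and SD of 3 mice (bar and whiskers). Gsta2, Gstt2, Gstz1, Mgst3, Ugt1a2 and Sult1d1 are lower in both cystic groups, while Gstm2 and Sult2b1 are higher in both.

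Of the 17 glucuronosyltransferase genes tested, 6 fell, among them the 2 with the highest levels per kilobase, Ugt1a2 and Ugt3a2. The Ugt1 genes share their last exons with each other and overlap Gm20528 on the other strand. Only 17.3% to 49.7% of a Ugt1 gene's exon length belongs to it alone, and a gene's count comes mainly from its own first exon. Ugt1a2 had 92.1, 72.8 and 124 CPM in noncystic and 36.6, 39.3 and 42.8 CPM in cystic Pkd2WT mice, apart in every mouse and 2.44-fold lower (-1.29 ± 0.15, adjusted p = 7.1e-06). Ugt1a7c fell (-0.94, adjusted p = 5.7e-04), as did Ugt1a6a (-1.14, adjusted p = 0.018), though the call for Ugt1a6a was lost without mouse 26 (adjusted p = 0.073) or mouse 27 (adjusted p = 0.059). Ugt1a10, the next Ugt gene by level per kilobase in noncystic Pkd2WT kidneys, had 331 to 1030 counts a mouse and was not called (-0.08, adjusted p = 0.86, or 0.08 with library totals).

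The Ugt2 genes, whose enzymes handle steroids and bile acids, were mostly scarce. Ugt2b34, the exception, went from 33.1, 31.9 and 45.8 CPM to 23.4, 14.8 and 23.6 CPM, 1.79-fold lower with no overlap (-0.84 ± 0.19, adjusted p = 0.0027). Ugt2a3 was called as higher on 0, 1 and 0 counts against 15, 2 and 4 counts, too few for a fold change. Without mouse 25 its adjusted p was 0.21, and without mouse 19 or mouse 21 it was 0.12. Ugt3a1 and Ugt3a2, which transfer sugars other than glucuronate, fell together. Ugt3a2 dropped from 301, 285 and 321 CPM to 136, 112 and 84.8 CPM (-1.44 ± 0.13, 2.72-fold, adjusted p = 3.3e-07) and Ugt3a1 from 12.1, 12.4 and 13.9 CPM to 5.77, 5.53 and 3.72 CPM (-1.35 ± 0.17, 2.55-fold, adjusted p = 1.0e-05). In neither gene did any cystic Pkd2WT mouse reach the lowest noncystic one.

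The sulfotransferases held the most abundant member. Sult1d1, which sulfates catecholamines, was at 780.0, 744 and 833 CPM in noncystic mice and at 334, 176 and 233 CPM in cystic Pkd2WT mice. It fell 3.17-fold without overlap (-1.67 ± 0.17, adjusted p = 1.5e-06). Sult1b1, known for sulfating thyroid hormones, went from 7.27, 5.70 and 6.46 CPM to 3.14, 1.96 and 2.02 CPM, 2.71-fold lower (-1.44 ± 0.21, adjusted p = 4.5e-05). Sult1a1, a phenol sulfotransferase, fell as well (-1.03, adjusted p = 1.5e-04). Sult1c2 fell by the test (-0.48, adjusted p = 0.013) but not with library totals (adjusted p = 0.074).

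Rising sulfotransferases were scarce ones. Sult2b1, which sulfates cholesterol, had 2.65, 2.79 and 2.29 CPM in noncystic and 5.50, 4.75 and 5.46 CPM in cystic Pkd2WT mice, separate groups and a 2.03-fold increase (1.02 ± 0.18, adjusted p = 3.5e-04). Sult4a1, a family member best known from brain, had 9, 21 and 4 counts in noncystic and 63, 59 and 55 counts in cystic mice. The groups were apart, 4.28-fold (2.10 ± 0.46, adjusted p = 0.0019). Sult5a1 measured 6.33, 4.68 and 6.10 CPM and then 4.18, 4.55 and 4.94 CPM, which overlapped, and was not called (-0.33 ± 0.21, adjusted p = 0.28).

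Sult2a1, a hydroxysteroid and bile acid sulfotransferase, was called higher on a single mouse. Its counts were 91 in mouse 25, 9 in mouse 30, 1 in mouse 19 and 0 in the other 9 mice, and without mouse 25 it fell under the cutoff and was not tested. The 8 Sult2a genes together had 165 counts, 143 of them in mouse 25, 20 in mouse 30 and 2 in mouse 19, and 4 of the 8 had any count. Ugt2b36 had 52 counts in mouse 25, 7 in mouse 30, 1 in mouse 19 and 0 elsewhere, and Ugt2b1 and Ugt2b35 had 17 and 10 counts in mouse 25, 2 each in mouse 30 and at most 2 in any other mouse. These are the mice with the highest Alb counts. The hepatocyte markers Ttr and Serpina1a did not peak in mouse 25, at 1916 and 721 counts. Their highest counts were 2896 in mouse 21 and 1240 in mouse 28, in that order. Of 6 hepatocyte markers, 2 were called higher and 2 lower in cystic Pkd2WT kidneys, and their summed level was 164 to 192 CPM in noncystic and 60.6 to 571 CPM in cystic Pkd2WT mice. Their part in the Sult2a1 call was not tested.

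**Figure D3:**
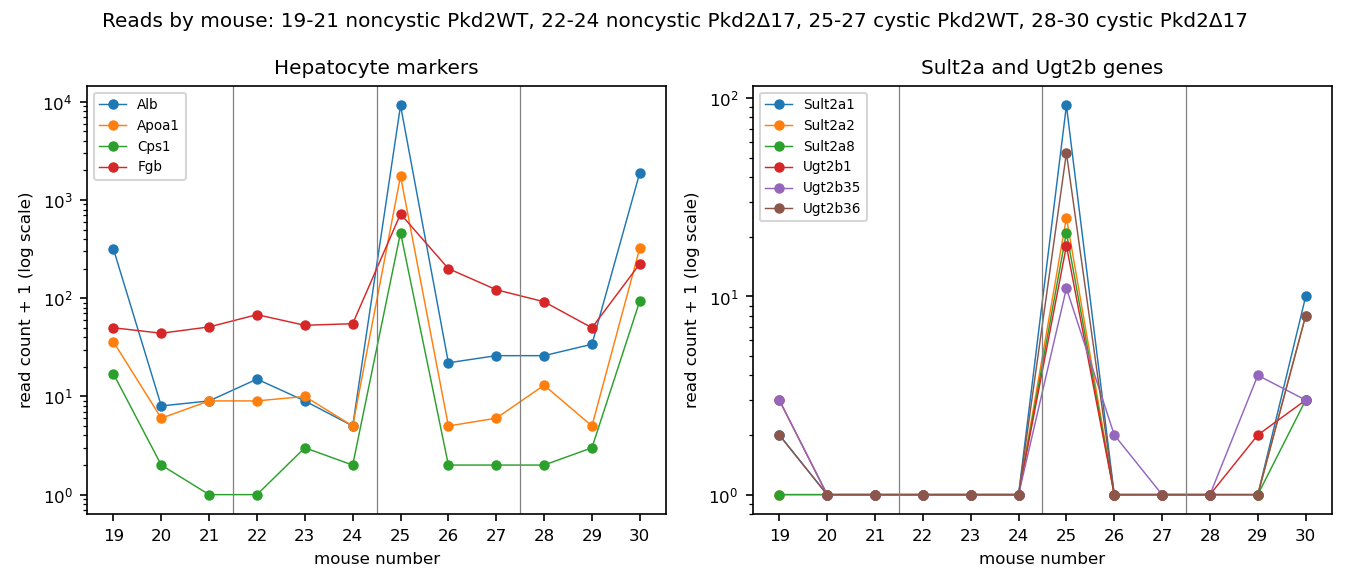
Counts plus 1 (log axis) of 4 of the 6 hepatocyte markers (Alb, Apoa1, Cps1, Fgb) and 6 members (Sult2a1, Sult2a2, Sult2a8, Ugt2b1, Ugt2b35, Ugt2b36) in each of the 12 mice. The markers Ttr and Serpina1a are not drawn and were highest in other mice, at 2896 counts in mouse 21 and 1240 in mouse 28. Mouse 25 is highest for all 6 members, with up to 91 counts of Sult2a1.

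Summed over each family, the Gst genes gave 1592, 1748 and 1676 CPM in noncystic and 1129, 1113 and 1128 CPM in cystic Pkd2WT mice. The Sult genes gave 885, 851 and 938 CPM against 406, 242 and 310 CPM, and the Ugt genes 485, 446 and 565 CPM against 249, 222 and 186 CPM. No family's sums overlapped between these groups. By number of called genes the split was 9 lower and 3 higher of 21 Gst genes, 1 lower of 3 Mgst genes, 6 lower and 1 higher of 17 Ugt genes, and 4 lower and 3 higher of 12 Sult genes. The direction of these sums rests on the abundant members. The median log2 fold change was 1.02 over the 12 tested Sult genes and 0.03 over the 17 Ugt genes. Both medians include scarce genes with reads mainly in mouse 25: Sult2a1, Sult2a2 and Sult2a8, and Ugt2b1, Ugt2b35 and Ugt2b36. Of the 165 Sult2a counts, 143 were in that mouse, so the Sult median does not show that most Sult genes rose.

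The order of levels between genes shifted as well, on the scale of CPM per kilobase of exon that belongs to 1 gene. In noncystic Pkd2WT kidneys Sult1d1 led at 319 ± 18.2 CPM per kilobase (SD, n = 3), followed by Gsta2 at 258 ± 14.3, Mgst3 at 146 ± 16.4, Gsta4 at 129.6 ± 10.9 and Gstm1 at 113 ± 17.1 CPM per kilobase. Sult1d1 and Gsta2 stood apart from each other and from the rest, while the SD ranges of Mgst3 and Gsta4 overlapped, as did those of Gsta4 and Gstm1. This scale makes no allowance for reads lost to sequence shared with other genes. Such sequence made up 28.4% of the 100-base windows of Gsta2 and 0% of those of Sult1d1, so the order of these genes is less sure than the SDs show. Gstm2 was the ninth, at 64.2 ± 10.4 CPM per kilobase. In cystic Pkd2WT kidneys Gstm2 was highest at 126 ± 3.66 CPM per kilobase, with 12.1% of the members' sum. Sult1d1 followed at 101 ± 32.6 and Mgst3 at 80.4 ± 2.53 CPM per kilobase, and the range of Sult1d1 over its mice overlapped that of Gstm2 and that of Mgst3. In cystic Pkd2Δ17 kidneys Sult1d1 led at 129 ± 16.5 and Gstm2 followed at 100.4 ± 12.3 CPM per kilobase.

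Several other cell-type readouts moved with these genes. All 10 proximal tubule markers were lower in cystic Pkd2WT kidneys, with a median log2 fold change of -1.21 and summed levels of 3377 to 4582 CPM against 8840 to 10767 CPM. All 4 macrophage markers (median 1.57) and all 3 tubule injury markers (median 2.11) were higher, as were 2 of 4 fibroblast markers. All 3 podocyte markers (median -1.32), all 3 red blood cell markers (-1.41), all 3 fat cell markers (-2.25) and 2 of 4 endothelial markers were lower. Other lists were mixed: 2 of 7 collecting duct markers were higher and 2 lower, and 1 of 4 thick ascending limb and distal tubule markers was higher and 2 lower. No lymphocyte, urothelium or adrenal cortex marker was called. The part of this shift in the members' changes was not tested, and in whole kidney fewer cells of a type and less RNA per cell cannot be told apart.

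The genes that supply and serve conjugation fell more than they rose. Of 71 such genes tested, 36 were lower and 15 higher, against 14.2% and 16.9% of all genes. With library totals 32 were lower and 24 higher, against 10.02% and 25.4%. Among genes of glutathione synthesis, recycling and breakdown, 14 of 24 fell and 6 rose, and the lowest adjusted p in each direction belonged to Hagh, a hydrolase that releases glutathione (-1.16, adjusted p = 7.5e-08), and Gpx7, a peroxidase (0.98, adjusted p = 2.6e-06). Of 13 transporters of conjugates, 8 fell, among them the organic anion transporter Slc22a6 (-1.08, adjusted p = 9.3e-07), and 2 rose, among them the efflux pump Abcc4 (0.81, adjusted p = 5.2e-04). Sulfate and PAPS genes split into 3 lower and 2 higher of 9, with the sulfate transporter Slc26a2 higher (1.11, adjusted p = 8.3e-07) and the PAP phosphatase Bpnt1 lower (-0.79, adjusted p = 5.4e-07). UDP-glucuronate genes split into 2 lower and 1 higher of 4, with the carrier Slc35d1 at -0.73 (adjusted p = 1.6e-05) and the glucuronidase Gusb at 0.55 (adjusted p = 4.9e-05). Of 15 regulators, 7 fell, with the bile acid receptor Nr1h4 at -1.0 (adjusted p = 3.2e-06), and 2 rose, with Ahr, the aryl hydrocarbon receptor, at 0.65 (adjusted p = 2.3e-04). Of 6 Nrf2 targets outside the families, Hmox1, which breaks down heme, was at 0.91 (adjusted p = 7.7e-05) and Nqo1, a quinone reductase, at -0.84 (adjusted p = 9.4e-05), with 2 higher and 2 lower in all. Of the 4 members with the antioxidant response element letters in the stretches above, Gsta3 rose, Gstm5 fell and Gstm7 and Mgst1 were not called. The 12 genes with GCGTG were Gsta1, Gsta2, Gstm1, Gstm5, Gstp1, Gstp3, Mgst3, Sult1b1, Sult1d1, Sult2b1, Ugt1a5 and Ugt1a8, of which 6 fell, Sult2b1 rose, 3 were not called and Ugt1a5 and Ugt1a8 were not tested.

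In Pkd2Δ17 kidneys, where no mouse is shared with the comparison above, the same disease contrast called 21 of the 53 members, 18 lower and 3 higher, against 23% of all genes (10.2% lower, 12.8% higher). The median log2 fold change was -0.52, and that of all genes -0.00. Without mouse 22 the members' median was -0.24, and without any other 1 mouse of these groups it was -0.49 to -0.41. Of the 27 members called in Pkd2WT kidneys, 20 were called here, each in the same direction. That is 74.1% of the first list and 95.2% of this one, where over all genes 4829 were called in both, 63.0% and 85.0% of the lists, and 4827 of these in the same direction. Gsta2 was at 324, 254 and 347 CPM in noncystic and 91.6, 93.6 and 86.5 CPM in cystic Pkd2Δ17 mice (-1.77, adjusted p = 4.1e-08). Sult1d1 measured 961, 878 and 778 CPM and then 271, 346 and 336 CPM, 2.75-fold lower (adjusted p = 1.3e-05), and Ugt1a2 went from 123, 103 and 128 CPM to 43.6, 32.9 and 35.6 CPM, 3.15-fold lower (adjusted p = 2.0e-06). All 3 pairs of groups were without overlap, as were those of 29 of the 53 members and 37.9% of all genes. The 3 members called higher were Gstm2, at 111, 97.8 and 119 CPM against 145, 185 and 175 CPM (0.63 ± 0.11, adjusted p = 6.2e-04), Sult2b1 (0.83, adjusted p = 0.0028) and Sult4a1 (1.64 ± 0.47, adjusted p = 0.017). For Sult4a1 the adjusted p was 0.083 without mouse 23, 0.058 without mouse 24 and 0.088 without mouse 30. Ugt3a2 was 1.71-fold lower in cystic Pkd2Δ17 kidneys, at 300.0, 337 and 317 CPM against 189, 196 and 173 CPM (-0.77 ± 0.13, adjusted p = 2.2e-04). Ugt3a1, at 17.3, 19.1 and 14.9 CPM against 11.8, 13.4 and 10.6 CPM, fell by a smaller margin (-0.52 ± 0.16, adjusted p = 0.026) and without overlap. Its call was lost with library totals (adjusted p = 0.10) and without mouse 22 (adjusted p = 0.061), mouse 23 (0.099), mouse 28 (0.069) or mouse 30 (0.11). Across the 53 members the log2 fold changes of both contrasts had Pearson's r = 0.78 and Spearman's rho = 0.72, and 44 had the same sign, or 83.0%, against 75.1% of all genes. The points share libraries within a contrast and several share reads or neighbours, and over all genes tested r was 0.42.

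**Figure D4:**
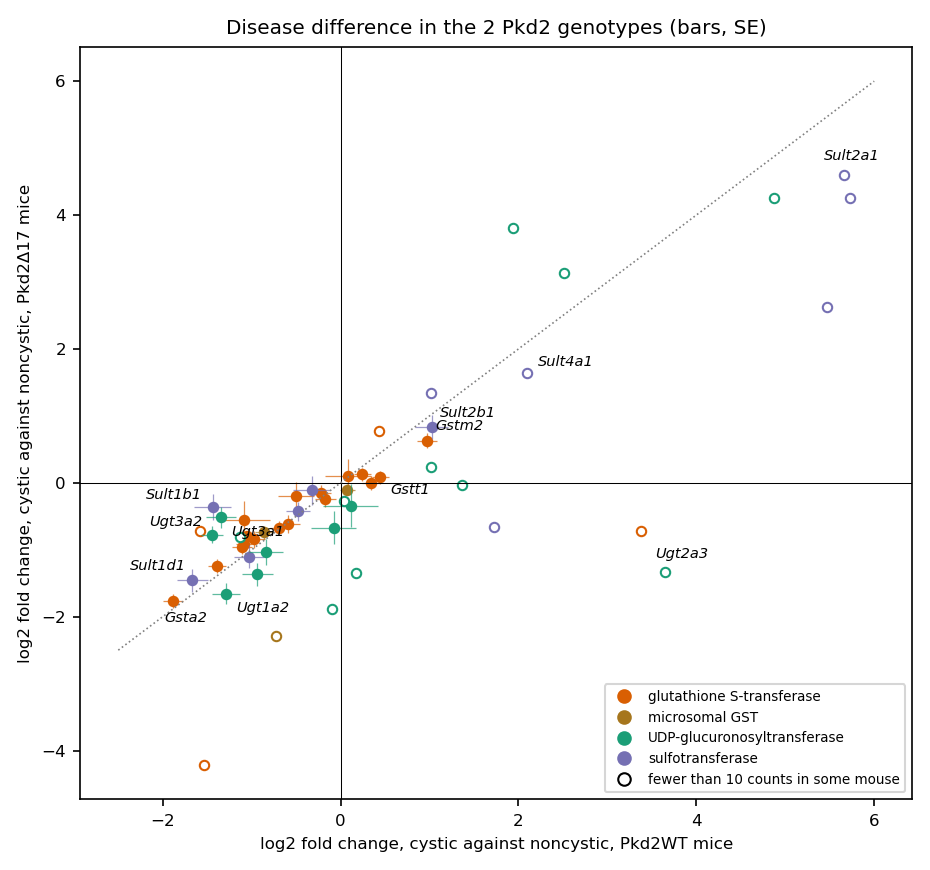
Log2 fold change of the 53 tested members in cystic against noncystic Pkd2WT kidneys (horizontal) and Pkd2Δ17 kidneys (vertical). Filled points have at least 10 counts in every mouse and carry SE bars, open points have fewer, and the dotted line marks equality. Of the members called on each axis, 20 of 27 lie left of 0 and 18 of 21 below 0, and 44 of 53 have the same sign on both axes.

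Members called only in Pkd2WT kidneys were Gsta3, Gstt1, Gsto2, Sult1b1, Ugt1a6a, Sult2a1 and Ugt2a3, and Mgst2 was called only in Pkd2Δ17 kidneys. Gstt1 was at 76.2, 69.8 and 83.7 CPM in noncystic and 68.9, 88.8 and 85.4 CPM in cystic Pkd2Δ17 mice, overlapping (0.08, adjusted p = 0.60). Gsta3 was at 70.3, 66.8 and 77.9 CPM and at 62.1, 77.3 and 75.1 CPM, also overlapping (-0.00, adjusted p = 0.98, or 0.15 with library totals). Sult1b1 was somewhat lower, from 7.63, 5.89 and 6.99 CPM to 5.14, 5.87 and 4.95 CPM, but not called (-0.36, adjusted p = 0.23). The Mgst2 call rested on 3, 11 and 9 counts against 1, 2 and 2 counts, and was lost in 8 of 15 alternative analyses. These lists are not shown to differ, since the test of the difference between contrasts called 0 members in edgeR's quasi-likelihood test, where it called 0.0122% of all genes (0.00812% higher, 0.00406% lower). At an unadjusted p under 0.05 it gave 8 of 53 members (8.33% of all genes), and limma gave 0 adjusted calls. The lowest adjusted p was 0.27, for Ugt3a2 (difference of log2 fold changes 0.67) and Sult1b1 (1.08). DESeq2 called both, Ugt3a2 with an adjusted p of 0.034 and Sult1b1 of 0.049, and without mouse 25 the quasi-likelihood test called Ugt3a2 (0.85, adjusted p = 0.025). Leaving out mice 25 and 30, an alternative chosen after seeing the data, gave Ugt3a2 an adjusted p of 0.0097 and Sult1b1 of 0.032.

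Deleting the miR-17 motif changed few members in cystic kidneys. This comparison and the disease contrast in Pkd2WT kidneys use the same cystic Pkd2WT mice, so that their values are not independent. The test called 5 of 53 members, Ugt3a1, Ugt3a2 and Sult1b1 higher and Gstt1 and Ugt2b37 lower in Pkd2Δ17, against 2.23% of all genes (1.19% higher, 1.04% lower). At an unadjusted p under 0.05 there were 15 members (14.3% of all genes), and 14 did not overlap between the groups (19% of all genes), 6 higher and 8 lower. The median log2 fold change was -0.03.

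Ugt3a1 had 5.77, 5.53 and 3.72 CPM in cystic Pkd2WT and 11.8, 13.4 and 10.6 CPM in cystic Pkd2Δ17 mice, every one of the latter higher. It rose 2.38-fold (1.25 ± 0.17, adjusted p = 0.0015). Ugt3a2, its neighbour on chromosome 15, had 136, 112 and 84.8 CPM and then 189, 196 and 173 CPM, again without overlap, 1.67-fold higher (0.74 ± 0.13, adjusted p = 0.0067). Both calls were kept in each of 16 alternative analyses. Sult1b1 rose 2.22-fold, from 3.14, 1.96 and 2.02 CPM to 5.14, 5.87 and 4.95 CPM (1.15 ± 0.21, adjusted p = 0.0095), and this call was lost without mouse 27 (adjusted p = 0.060) and without mouse 29 (adjusted p = 0.058). Sult1b1 lies at chr5:87513339-87538195, on the chromosome that carries the deletion.

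Gstt1 went the other way, from 115, 109 and 115 CPM to 68.9, 88.8 and 85.4 CPM. Each Pkd2Δ17 mouse was lower, by 1.39-fold on average (-0.48 ± 0.09, adjusted p = 0.015), a call lost without mouse 27 (adjusted p = 0.068) or mouse 28 (adjusted p = 0.077). Ugt2b37, also on chromosome 5 (chr5:87240493-87254804), had 43, 26 and 36 counts in cystic Pkd2WT and 5, 10 and 9 counts in cystic Pkd2Δ17 mice. It was 3.95-fold lower (-1.98 ± 0.41, adjusted p = 0.019), and its adjusted p was 0.082 without mouse 27, 0.12 without mouse 28 and 0.064 without mouse 29. With library totals Ugt2b37 was also called higher in cystic than noncystic Pkd2WT kidneys (1.18, adjusted p = 0.022), where TMM scaling gave 1.02 ± 0.38 (adjusted p = 0.053).

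Other abundant members were not called in this comparison. Sult1d1 had 334, 176 and 233 CPM in cystic Pkd2WT and 271, 346 and 336 CPM in cystic Pkd2Δ17 mice, overlapping (0.36, adjusted p = 0.34). Without mouse 25 it was called (0.64, adjusted p = 0.011). Gstz1, without overlap at 101, 82.9 and 93.8 CPM against 116, 109 and 113 CPM, was not called (0.28, adjusted p = 0.098), nor was Mgst1 (-0.30, adjusted p = 0.079). Gstm2 was not called either (-0.32, adjusted p = 0.17), although each Pkd2Δ17 mouse was lower. Beside these genes, 4 of 10 proximal tubule markers were called higher in cystic Pkd2Δ17 than cystic Pkd2WT kidneys (median log2 fold change 0.37). Their sums overlapped, at 4337 to 5853 CPM against 3377 to 4582 CPM. Of 4 thick ascending limb and distal tubule markers 1 was called higher, and their sums were separate, at 3151 to 3302 CPM against 1624 to 2224 CPM. Of 6 hepatocyte markers 1 was called higher. Among tubule injury markers 2 of 3 were lower, and among macrophage markers 1 of 4 (summed 130 to 142 CPM against 149 to 172 CPM). The shift in markers was thus not confined to the proximal tubule. Their part in the members' changes was not tested.

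**Figure D5:**
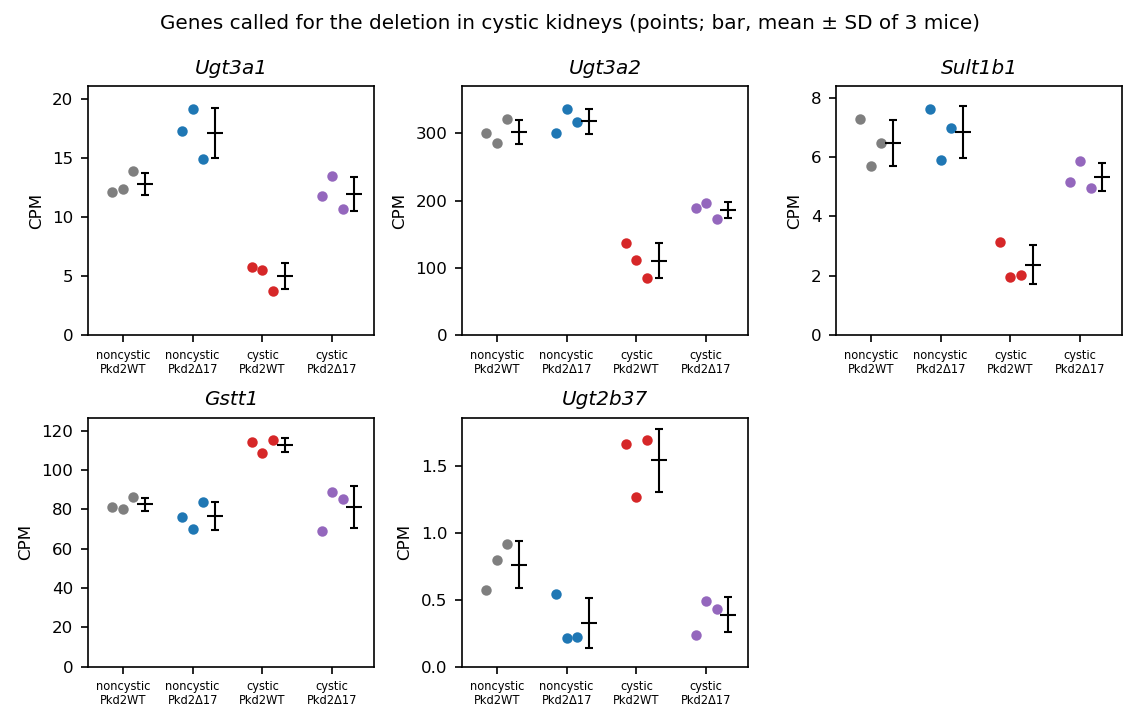
CPM of Ugt3a1, Ugt3a2, Sult1b1, Gstt1 and Ugt2b37 in each mouse (points) by group, with the mean and SD of 3 mice. These are the 5 members called between cystic Pkd2Δ17 and cystic Pkd2WT kidneys; for Ugt3a1 the cystic Pkd2Δ17 mice, at 10.6 to 13.4 CPM, lie above the cystic Pkd2WT mice, at 3.72 to 5.77 CPM.

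In noncystic kidneys the deletion gave 0 called members in the quasi-likelihood test, where 0.00406% of all genes were called, and 0 by DESeq2 and limma as well. At an unadjusted p under 0.05 there were 6 members, against 6.31% of all genes, and all 6 were Ugt genes. They were Ugt1a10 (0.67), Ugt1a6a (0.68), Ugt1a7c (0.47), Ugt1a9 (1.46) and Ugt3a1 (0.42) with higher values and Ugt2b37 (-1.20) with lower ones, each at an adjusted p of 0.77. These same 6, picked here by their p, were the only ones of the 53 members whose groups did not overlap, a share near the 10.8% of all genes. Ugt3a1 had 12.1, 12.4 and 13.9 CPM in noncystic Pkd2WT and 17.3, 19.1 and 14.9 CPM in noncystic Pkd2Δ17 mice. Ugt3a2 did not show this, at 301, 285 and 321 CPM against 300.0, 337 and 317 CPM (0.07, adjusted p = 0.93). Sult1b1 and Gstt1 overlapped between the noncystic groups, with log2 fold changes of 0.08 and -0.11. In the core of 32 members the range was -0.22 to 0.67.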

How the data were processed

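RNA of whole kidneys was sequenced after library preparation by a service provider. Per the study's methods and the submitters' processing notes, the authors trimmed reads with Trim Galore 0.6.3 and aligned them to GRCm38 with STAR 2.5.3a. The deposited values are raw counts of reads per gene from STAR's gene counting, which leaves out reads that map to several places or overlap several genes. The strand setting was not given in the sources used here. Rows with no gene name held 0.0225% of counts. They stayed in the library totals and, where they reached the cutoff, in the tests.

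Mice were grouped by their labels. Genes with an average log2 CPM above -3 were kept (24642 genes). Counts were scaled by TMM and fitted over all 4 groups with edgeR 4.0.16 (glmQLFit and glmQLFTest, R 4.3.3), followed by contrasts for disease, deletion and their interaction, with Benjamini-Hochberg adjustment. The cutoff and the samples follow the study's methods, which used limma-trend. Limma 3.58.1 and DESeq2 1.42.0, library totals, other cutoffs, an Xist covariate and leaving out mice were alternatives. Gene positions came from GENCODE on GRCm38, and lengths count exon bases held by 1 gene. The median SE of the members' log2 fold changes was 0.208, and 3 mice a group limit the precision. The members, the gene lists and the rule for naming were chosen with earlier results of these data known. By that rule, values in every mouse are given in each subfamily for the tested member with the highest level per length, for the rising and the falling member with the lowest adjusted p in the disease contrast of Pkd2WT mice, and for members called in a deletion contrast, and other genes are given by fold change or range. The counts of Mgst2 and of the Sult2a and Ugt2b genes with reads mainly in mouse 25 were singled out after their values were seen. The labels call each mouse a separate sample.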

Additional observations from a re-analysis of the deposited data

How the results depend on the processing

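The count of members called between cystic and noncystic kidneys stayed between 22 and 32 in Pkd2WT and between 17 and 23 in Pkd2Δ17 mice under every alternative run, and leaving out 1 mouse gave 23 to 28 and 17 to 20. No called value changed direction, but with library totals some values that were not called crossed 0, such as Ugt1a10 in Pkd2WT kidneys (-0.08 to 0.08). The deletion contrast in cystic kidneys, with 5 members called and 2.23% of all genes, varied with the alternative. The share of all genes called varied too, though not always in step. This contrast gave 11 members with no cutoff on low counts (4.94% of all genes), 3 when fitted on the compared groups only (0.683%), 3 at an adjusted p under 0.01 (0.483%), and 2 to 7 when 1 mouse was left out: 2 without mouse 27 (0.527%), 3 without mouse 28 (0.515%) or 29 (0.479%) and 7 without mouse 25 (3.46%). Leaving out mice 25 and 30 gave 8 (4.69%) and leaving out mice 27 and 30 gave 2 (1.31%), both chosen after seeing the data. In noncystic kidneys the deletion called 1 member, Ugt1a10, with no cutoff. The interaction called 4 members with no cutoff, 2 with DESeq2, 2 without mice 25 and 30, and 0 to 1 when 1 mouse was left out. Except where fewer mice or genes were used, the cause was not tested. Members with few counts could be read only at large changes. No paired analysis was possible because each mouse has its own number, shared by no other group.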
